A study of Rattus norvegicus with 38 samples.

Results

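Immediate early genes are transcribed within minutes of a stimulus from factors already present in the cell, and many of them encode transcription factors. Fos and Jun proteins pair into the AP-1 factor. Egr1 is a zinc finger factor, Atf3 is a stress factor of the ATF family that is often used as a sign of tubular injury in the kidney, and Myc drives growth and cell cycle entry. The genes described here are Fos (ENSRNOG00000008015), Jun (ENSRNOG00000026293), Junb (ENSRNOG00000042838), Egr1 (ENSRNOG00000019422), Atf3 (ENSRNOG00000003745) and Myc (ENSRNOG00000004500), taken by their Ensembl rat identifiers. Of the 6, 5 were among the 30207 genes of the deposited table, and Junb was not analysed here. In bulk kidney RNA, a change in the number of cells that express a gene and a change in the RNA per cell cannot be told apart.

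Kidney RNA of 38 rats was sequenced from the 3' ends of transcripts after 7 weeks of treatment. In 10 animals, anti-Fx1A at 2.0 mL/kg was combined with a daily 20 mg/kg of L-NAME. A further 10 received anti-Fx1A alone at 2.5 mL/kg, an antiserum raised to brush border material of the proximal tubule. L-NAME alone, which inhibits nitric oxide synthase, was used in 10 animals at the same daily dose of 20 mg/kg, and 8 animals had vehicle. A comparison of the combination with anti-Fx1A alone therefore holds a difference in antiserum dose as well. The labels state no strain, sex or age. Animals are numbered 1 to 38 group by group, and a batch that followed these numbers cannot be told apart from the treatments.

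Depth was between 4120902 and 7728847 reads per library. The 10 most abundant genes took 21.08 to 37.53% of the reads in combination libraries, 18.2 to 38.44% in anti-Fx1A, 21.88 to 34.81% in L-NAME and 28.07 to 32.99% in vehicle libraries. Anti-Fx1A animal 10, L-NAME animal 25 and vehicle animal 1 stood apart from the rest, with library weights of 0.300, 0.294 and 0.279 in limma, where the next lowest was 0.568. For each single treatment against vehicle and for the combination against anti-Fx1A, values of Egr1 and Atf3 without these libraries are given beside the result. The kidney label was not checked against marker genes, because the files and the reference used here pair no identifier with a symbol.

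The upstream sequence of Egr1 is shown because it carries the element through which serum and growth factors are known to switch on immediate early genes, the CArG box of the serum response element. Among the 5 genes measured, Egr1 was the 1 with a window in the RefSeq promoter table (GRCr8). The stretch of 250 bases upstream of its start, chr18:26736828-26737077 on the plus strand, is printed 5′ to 3′ with the CArG boxes in capitals.
Egr1: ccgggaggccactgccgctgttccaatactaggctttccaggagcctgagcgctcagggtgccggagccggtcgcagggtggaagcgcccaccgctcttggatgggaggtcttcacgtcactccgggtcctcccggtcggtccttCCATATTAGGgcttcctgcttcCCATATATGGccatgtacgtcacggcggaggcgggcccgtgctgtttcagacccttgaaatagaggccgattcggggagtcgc
Egr1 held 2 CArG boxes, at bases -105 to -96 and -83 to -74 relative to the start. Of 33469 RefSeq windows of 250 bases, 1.5% held at least 1 CArG box and 0.0209% held 2 or more. The AP-1 site TGACTCA and the cAMP response element TGACGTCA, searched on both strands, had 0 exact matches in this window, and were present in 4.05% and 1.59% of all windows. Only exact matches over the full length were counted, so shorter or inexact forms of these elements may be present. A match is a description of the letters and does not show that a factor binds there.

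Levels differed widely between the genes. In 3' end libraries reads do not grow with transcript length, so reads scaled to the total of each library (RPM) allow a rough comparison between genes. Reads also depend on how the 3' end of each gene is annotated, which is not given here, so the order below is one of reads. In vehicle kidney, Jun stood highest with a mean of 90.3 ± 15.8 RPM (SD, n = 8). Egr1 followed at 13.4 ± 5.33, Atf3 at 3.28 ± 1.16, Fos at 1.51 ± 0.607 and Myc at 0.550 ± 0.413 RPM. Depth therefore limits Fos and Myc most. Counting error alone would give a coefficient of variation of 34.4% for Fos and 57.1% for Myc in the vehicle animals, where 40.1% and 75.1% were found. For Jun, counting alone would give 4.46% and 17.5% was found.

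Of the 4 genes tested, 3 were higher with the combination than with vehicle, and these were Atf3, Egr1 and Fos. Tests were made with limma on the deposited variance-stabilised log2 values over the 12599 genes whose mean reached 5.32, which is 1 log2 unit more than a gene with 0 reads has. Fos lay just inside this limit with a mean of 5.41 over all animals, and Myc lay outside it at 4.84 and was not tested. By group, Fos was at 5.26 in vehicle, 5.28 in anti-Fx1A, 5.33 in L-NAME and 5.73 in combination animals. It thus passed the limit through the group where it was high, and its calls are to be read with that in mind. With no filter on low values, Fos was still called in the combination against vehicle (limma adjusted p = 0.0462). Over all genes tested, 35.8% were called in the combination against vehicle (adjusted p under 0.05) and 18.4% were called higher. The median log2 fold change was 0.65 over the 4 members and -0.01 over all genes, and the median absolute log2 fold change was 0.65 and 0.21.

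Atf3, which is low in healthy kidney and induced by many kinds of stress, had the largest difference of the 4. Its RPM ran from 2.42 over a median of 9.85 to 59.5 in the 10 combination animals, and from 0.917 over a median of 3.68 to 4.43 in the 8 vehicle animals. On the log2 scale, 7 of 10 combination animals exceeded every vehicle animal, and the groups overlapped. The mean log2 value was 6.66 ± 0.97 with the combination (SD, n = 10) and 5.67 ± 0.27 with vehicle (n = 8). The log2 fold change was 0.99 (SE 0.33, limma adjusted p = 0.0187). The deposited scale is compressed at low counts, and the ratio of mean RPM was 5.12, against 2.68 for the ratio of medians. Combination animals 29 and 35 had 59.5 and 47.9 RPM, and the other 8 had at most 11.8.

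Egr1, which is induced through MAP kinase and serum response factor, ran from 11.96 over a median of 25.5 to 81.5 RPM in combination animals. In vehicle animals it ran from 8.27 over 11.96 to 24.6. On the log2 scale 5 of 10 combination animals exceeded the top vehicle animal, which was animal 7 at 24.6 RPM. The mean log2 value was 7.65 ± 0.71 with the combination (SD, n = 10) and 6.83 ± 0.37 with vehicle (n = 8), a log2 fold change of 0.82 (SE 0.28, limma adjusted p = 0.0207). The ratio of mean RPM was 2.52. The calls of Atf3 and Egr1 were kept when each of the 38 animals was left out in turn, with adjusted p from 0.00669 to 0.0443 for Atf3 and from 0.00866 to 0.0490 for Egr1. An exact permutation test of the group means, two-sided and not adjusted, gave p = 0.00594 for Atf3 and 0.00836 for Egr1.

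Fos, the partner of Jun in AP-1, rested on few reads. The 10 combination libraries held 6 to 62 reads of Fos with a median of 18, and the 8 vehicle libraries 4 to 15 with a median of 7.5. In 5 of 10 combination animals the log2 value exceeded that of every vehicle animal. The mean log2 value was 5.73 ± 0.49 with the combination (SD, n = 10) and 5.26 ± 0.17 with vehicle (n = 8), and the ratio of mean RPM was 2.83. The log2 fold change was 0.48 (SE 0.17, limma adjusted p = 0.0292). This call was lost with quantile normalisation (0.43, adjusted p = 0.0550) and with voom on the recovered reads, where the fold change was larger (1.12, adjusted p = 0.0868). Leaving out vehicle animal 3 or 4, or combination animal 29, 32, 33 or 35, also ended it, with limma adjusted p between 0.0508 and 0.0683.

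Jun, with the most reads of the 5, was not called. It ran from 58.0 over a median of 99.2 to 215 RPM in combination animals and from 68.3 over 91.3 to 113 in vehicle animals. On the log2 scale 2 of the combination animals exceeded every vehicle animal, and 3 were below every vehicle animal. The log2 fold change was 0.11 (SE 0.22, limma adjusted p = 0.708). Myc had 0 to 17 reads in combination libraries, with a median of 2.5 and 2 animals at 0, and 0 to 8 reads in vehicle libraries, with a median of 3 and 1 animal at 0. The upper limit of a count of 0, taken as 3 reads, was 0.388 to 0.728 RPM over the libraries, so most Myc values lay near the limit of detection. When the filter on low values was left out, its log2 fold change was -0.00 (SE 0.17, limma adjusted p = 1.0).

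**Figure D1:**
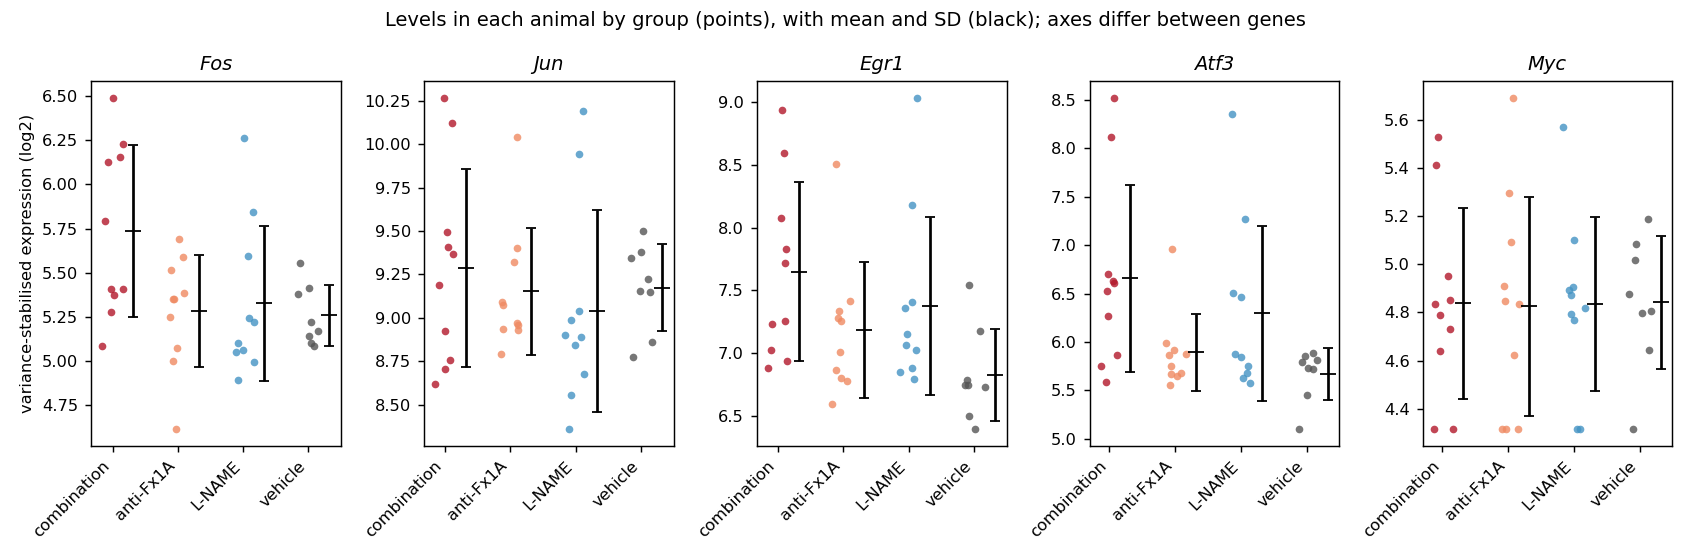
Variance-stabilised log2 level of each gene in each of the 38 animals (points) by group, with the group mean and SD in black, on axes that differ between genes. The highest values of Fos and Atf3 were in the combination group, at 6.49 and 8.52, while the Myc points at 4.32 are libraries with 0 reads.

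With L-NAME alone, 0 of the 4 genes were called, where 14.1% of all genes were (limma, adjusted p under 0.05). None of the 4 had an unadjusted p under 0.05, and voom on the recovered reads called 0. Atf3 had a mean log2 value of 6.29 ± 0.90 with L-NAME (SD, n = 10) and 5.67 ± 0.27 with vehicle (n = 8), a log2 fold change of 0.63 (SE 0.33, limma adjusted p = 0.212). Its median of 4.31 RPM with L-NAME was close to the 3.68 with vehicle, while its mean was 11.98 with L-NAME and 3.28 with vehicle. L-NAME animals 25 and 23 had 57.6 and 22.9 RPM, and the other 8 had at most 8.89. Egr1 was at 7.38 ± 0.71 with L-NAME and 6.83 ± 0.37 with vehicle, and the difference of 0.55 did not pass (SE 0.28, limma adjusted p = 0.194). Without L-NAME animal 25 these differences were 0.40 for Atf3 and 0.36 for Egr1, and without the 3 libraries that stood apart they were 0.37 and 0.30. Fos differed by 0.07 (SE 0.17, adjusted p = 0.830) and Jun by -0.14 (SE 0.22, adjusted p = 0.714).

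With anti-Fx1A alone, 0 of the 4 genes were called, where 1.1% of all genes were, and neither an unadjusted p under 0.05 nor a voom call was found for any of them. Egr1 had a mean log2 value of 7.19 ± 0.54 with anti-Fx1A (SD, n = 10) and 6.83 ± 0.37 with vehicle (n = 8), a log2 fold change of 0.36 (SE 0.28, limma adjusted p = 0.618). Atf3 differed by 0.22 (SE 0.33, adjusted p = 0.831), Fos by 0.02 (SE 0.17, adjusted p = 0.971) and Jun by -0.02 (SE 0.22, adjusted p = 0.981). Without anti-Fx1A animal 10 the difference was 0.21 for Egr1 and 0.10 for Atf3, and without the 3 libraries that stood apart it was 0.15 and 0.07. Leaving out vehicle animal 6 gave 0.14 for Atf3. Animal 10 was the highest of the anti-Fx1A group in all 5 genes. It had 1039 reads of Jun, 333 of Egr1, 90 of Atf3, 20 of Fos and 20 of Myc, where the other 9 anti-Fx1A animals reached at most 555, 129, 28, 16 and 8.

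The order of the group means on the log2 scale was the combination, L-NAME, anti-Fx1A and vehicle for Egr1, Atf3 and Fos. Neighbours in that order were not told apart in any of the 3 genes. For Fos the lower part of the order was not stable. By medians of the log2 value Fos stood at 5.60 in combination, 5.35 in anti-Fx1A, 5.16 in L-NAME and 5.20 in vehicle animals, and its differences of L-NAME or anti-Fx1A from vehicle changed sign under some settings, as with L-NAME animal 25 left out (-0.04 for L-NAME) or anti-Fx1A animal 10 left out (-0.02 for anti-Fx1A). Set against L-NAME alone, the combination gave 0 calls among the 4 genes, where 1.2% of all genes were called, 1 had an unadjusted p under 0.05 and voom called 0. That gene was Fos, at 5.73 ± 0.49 with the combination and 5.33 ± 0.44 with L-NAME (SD, n = 10 each; log2 fold change 0.41, SE 0.16, limma adjusted p = 0.212). It was called when L-NAME animal 25 was left out (0.51, adjusted p = 0.0423). For Jun the order was the combination, vehicle, anti-Fx1A and L-NAME, and the means of 9.29 ± 0.57, 9.17 ± 0.25, 9.15 ± 0.36 and 9.04 ± 0.58 lay within the spread of each group. Myc means lay between 4.83 and 4.84 in all 4 groups.

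Set against anti-Fx1A alone, the combination gave 1 call among the 4 genes, where 19.3% of all genes were called. Fos was at 5.73 ± 0.49 with the combination and 5.28 ± 0.32 with anti-Fx1A (SD, n = 10 each), a log2 fold change of 0.45 (SE 0.16, limma adjusted p = 0.0467). The value lies at the threshold, and 17 of the 38 fits that left out 1 animal did not call it, with adjusted p from 0.0211 to 0.103 over all 38. The call was also lost with quantile normalisation (adjusted p = 0.0503), with only the groups compared (0.0631), with voom (0.0676), which called 0 of the 4 genes, and with no filter on low values (0.0743). Atf3 was at 6.66 ± 0.97 with the combination and 5.89 ± 0.40 with anti-Fx1A (log2 fold change 0.77, SE 0.31, limma adjusted p = 0.0772). Without anti-Fx1A animal 10 the difference of Atf3 was 0.89 and passed (adjusted p = 0.0398). It also passed without L-NAME animal 25 (0.77, adjusted p = 0.0386) and without combination animal 38 (0.89, adjusted p = 0.0418). The other 35 of the 38 fits that left out 1 animal did not call Atf3. Over all 38 its difference ran from 0.56 to 0.89, with limma adjusted p from 0.0386 to 0.171. With anti-Fx1A animal 10, L-NAME animal 25 and vehicle animal 1 all left out, Fos, Egr1 and Atf3 were called, with log2 fold changes of 0.50, 0.61 and 0.89 (limma adjusted p = 0.0141, 0.0336 and 0.0151). Animal 10 was the highest of the anti-Fx1A group in all 5 genes, so leaving it out was bound to raise these differences. Combination animals 29 and 35, the highest of their group in Egr1 and Atf3, were kept, with library weights of 0.571 and 0.605.

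Anti-Fx1A set against L-NAME gave 0 calls among the 4 genes, where 0.381% of all genes were called, with 0 at an unadjusted p under 0.05 and 0 by voom. The log2 fold changes were -0.40 for Atf3 (SE 0.31), -0.19 for Egr1 (SE 0.26), 0.11 for Jun (SE 0.20) and -0.04 for Fos (SE 0.16). The interaction asks whether the antiserum changed a gene differently in the presence of L-NAME, as the combination minus L-NAME less anti-Fx1A minus vehicle. Because the antiserum dose was 2.0 mL/kg in the combination and 2.5 mL/kg alone, the dose difference and the interaction cannot be told apart. It was called for 0 of the 4 genes and for 0% of all genes, of which 1102 had an unadjusted p under 0.05. None of the 4 was among those, and voom called 0 of them. Its estimate was 0.38 for Fos (SE 0.24, limma adjusted p = 0.671), 0.27 for Jun (SE 0.30), 0.14 for Atf3 (SE 0.46) and -0.08 for Egr1 (SE 0.38), and the error exceeded the estimate in all but Fos. That Fos, Egr1 and Atf3 were called with the combination and not with a single treatment is thus no test that the responses differed.

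**Figure D2:**
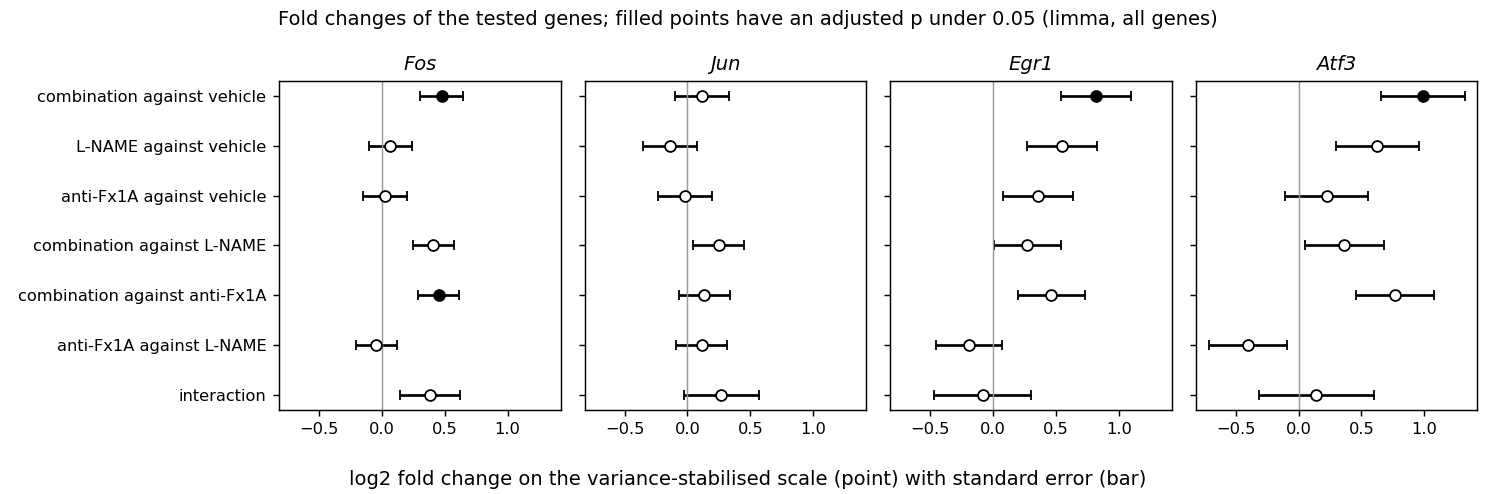
Log2 fold change on the variance-stabilised scale (point) with its standard error (bar) for the 4 genes tested in 7 comparisons, with filled points where the limma adjusted p over all genes was under 0.05. Filled points are Fos, Egr1 and Atf3 in the combination against vehicle, at 0.48, 0.82 and 0.99, and Fos in the combination against anti-Fx1A, at 0.45.

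The SD between animals was larger in the treated groups than in vehicle, but no test of this passed. For Atf3 the SD of the log2 values was 0.97 in combination, 0.40 in anti-Fx1A, 0.90 in L-NAME and 0.27 in vehicle animals. Fos had SDs of 0.49, 0.32, 0.44 and 0.17 in the same order, and Jun of 0.57, 0.36, 0.58 and 0.25. In each of the 5 genes and each of the 3 treated groups the SD exceeded that of vehicle, by ratios between 1.31 for Myc with L-NAME and 3.64 for Atf3 with the combination. The exact two-sided permutation tests of the mean distance from the group median gave 0 of 15 comparisons under an adjusted p of 0.05. The lowest was Fos in the combination, at 0.423 with the combination and 0.133 with vehicle (exact permutation p = 0.00537, adjusted over 15 p = 0.0806). In RPM, the coefficient of variation of Atf3 was 118% in combination, 85.7% in anti-Fx1A, 143% in L-NAME and 35.5% in vehicle animals, where counting alone would give 9.80%, 18.3%, 12.01% and 23.4%. For Fos the coefficient was 72.5%, 61.5%, 107% and 40.1% in the same order, where counting alone would give 19.4%, 30.9%, 27.3% and 34.4%. In RPM, L-NAME thus had the widest relative spread of Fos, while on the log2 scale, compressed at low counts, the combination had. RPM are scaled to all reads of a library, so the share taken by the 10 most abundant genes enters them. That share ranged more widely in each treated group than in vehicle, and its part in these values was not tested.

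The animals with the highest values were largely the same from gene to gene. Combination animal 29 was the highest of its group in all 5 genes, as anti-Fx1A animal 10 was in its own. L-NAME animal 25 was the highest of its group in Fos, Jun, Egr1 and Atf3, and L-NAME animal 23 was second in these and highest in Myc. Combination animal 35 was second of its group in Jun, Egr1, Atf3 and Myc and, in Fos, behind animals 29 and 32 on the log2 scale, though second in RPM. These 5 animals were above the highest vehicle animal in each of the 4 genes tested. At least 3 of the 4 genes exceeded the highest vehicle animal in 5 of 10 combination animals, 1 of 10 anti-Fx1A animals and 2 of 10 L-NAME animals. None did so in 3 of 10 combination animals, 7 of 10 anti-Fx1A animals and 5 of 10 L-NAME animals. Within the combination group the levels thus ran from animal 29, with 62 reads of Fos, 514 of Egr1 and 375 of Atf3, to animal 38, with 6, 84 and 17.

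**Figure D3:**
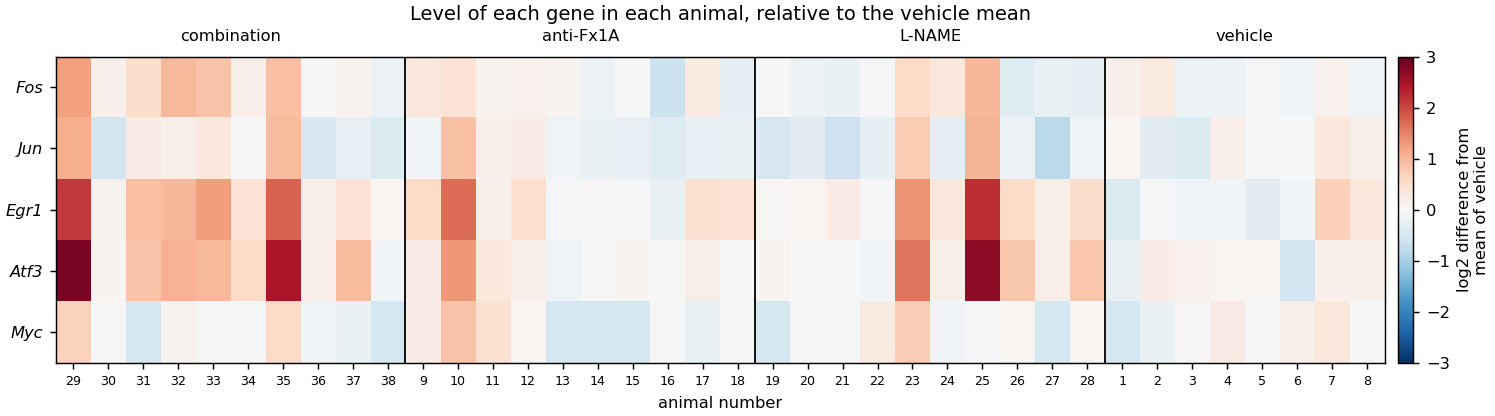
Log2 level of each gene (rows) in each animal (columns, by group) minus the mean of the 8 vehicle animals, in red where higher and in blue where lower. Combination animals 29 and 35, anti-Fx1A animal 10 and L-NAME animals 23 and 25 are red in Fos, Jun, Egr1 and Atf3.

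Correlation across the 38 animals was taken after the group means were removed. This takes out differences between group means, but the larger spread of the treated groups still enters. Egr1 and Atf3 were the closest pair (Pearson r = 0.91, Spearman rho = 0.82, permutation p = 1e-05 each, adjusted over 10 pairs p = 2e-05 and 5e-05). The value of 1e-05 is the smallest that the 100000 permutations can give. Jun and Egr1 had r = 0.90 and rho = 0.77, and Jun and Atf3 had r = 0.88 and rho = 0.71 (adjusted permutation p = 2e-05 for each r, 5e-05 and 0.0001 for rho). Fos followed Egr1 at r = 0.79, Jun at 0.78 and Atf3 at 0.75, with rho of 0.70, 0.68 and 0.57 (adjusted permutation p at most 3.33e-05 for r and 0.00106 for rho). Myc was less close, with r from 0.42 with Fos to 0.65 with Jun and rho from 0.34 to 0.58 (adjusted permutation p at most 0.0152 and 0.0496). All 10 pairs passed for r and for rho.

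The correlations were also taken without the 2 animals farthest from the median of the first gene of a pair. These were L-NAME animal 25 with combination animal 29 or, for 2 pairs, with anti-Fx1A animal 10. Without them r was 0.87 for Egr1 and Atf3, 0.85 for Jun and Egr1, 0.67 for Fos and Jun and 0.39 for Fos and Myc, and all 10 pairs still passed for r (adjusted permutation p at most 0.0264). For rho the pair of Fos and Myc no longer passed (0.28, adjusted permutation p = 0.102). Combination animal 35 and L-NAME animal 23, which were also high in Fos, Jun, Egr1 and Atf3, stayed in for every pair. These values therefore do not show how far a few high animals carry the correlations.

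Within single groups the pairs that passed were all in treated animals, and fewer passed by rank. Of the 10 pairs, 10 passed within the combination (permutation test, adjusted over 10), 6 within anti-Fx1A, 6 within L-NAME and 0 within vehicle (exact permutation test, n = 8). The median r over the 10 pairs was 0.86, 0.76, 0.79 and 0.10 in the same order. By rank the counts were smaller, with 9 pairs passing for rho within the combination, 4 within anti-Fx1A, 1 within L-NAME and 0 within vehicle (permutation tests, exact for vehicle, adjusted over 10), and median rho was 0.83, 0.68, 0.32 and 0.11. Pairs that passed for both r and rho numbered 9, 2, 1 and 0 in the same order. Within L-NAME, Fos and Egr1 had r = 0.82 and rho = 0.19, Fos and Jun 0.84 and 0.36, and Fos and Atf3 0.77 and 0.20, so r and rho differed widely for these pairs. Egr1 and Atf3 had r = 0.95 in combination, 0.92 in anti-Fx1A, 0.99 in L-NAME and 0.39 in vehicle animals (exact permutation p = 0.312 for vehicle), with rho of 0.98, 0.81, 0.88 and 0.64. The vehicle animals also had the smallest spread, and the difference in r between groups was not tested. In vehicle the coefficient of variation in RPM was 40.1% for Fos, 75.1% for Myc and 35.5% for Atf3. Counting alone would give 34.4%, 57.1% and 23.4%, which leaves little room for a correlation of these genes to be seen. The low r in 8 vehicle animals therefore does not show that the genes vary apart there, and the part of counting error was not tested.

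**Figure D4:**
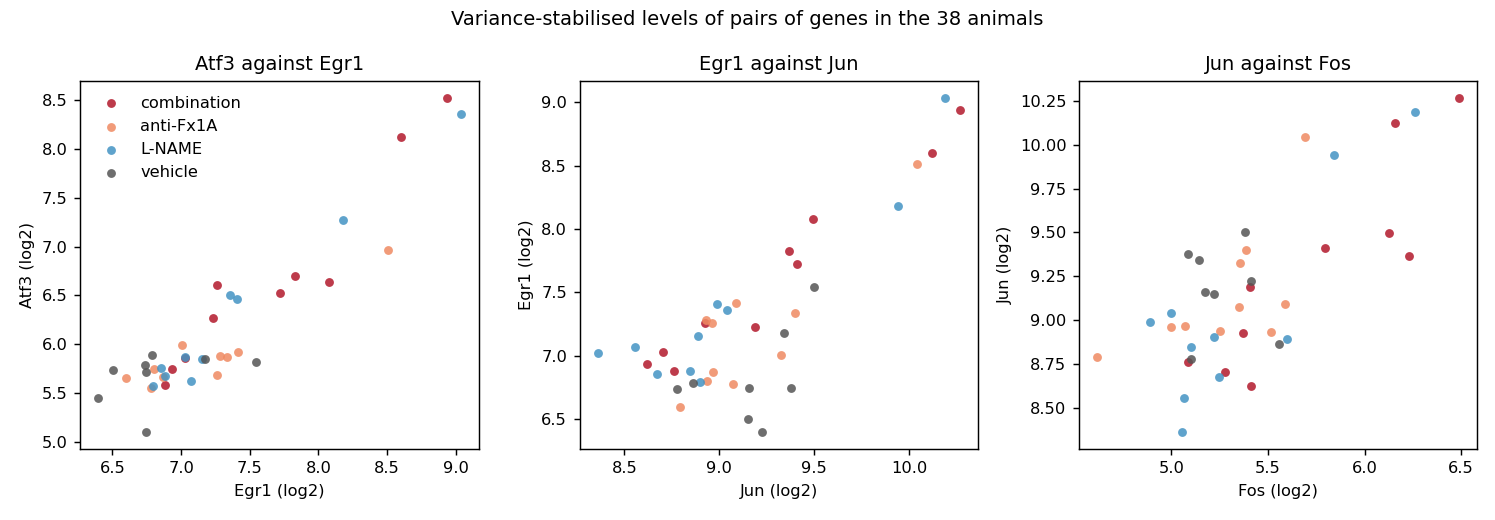
Variance-stabilised log2 levels of Atf3 against Egr1, Egr1 against Jun and Jun against Fos, with a point per animal coloured by group. Combination animals 29 and 35, anti-Fx1A animal 10 and L-NAME animals 23 and 25 hold the upper right for Atf3 against Egr1 and Egr1 against Jun. For Jun against Fos they are highest in Jun, but combination animals 32 and 33 have more Fos than animals 10 and 23. In the order of the plots, r with the group means removed was 0.91, 0.90 and 0.78.

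Composition of the libraries moved with these genes. Across the 38 animals, with the group means removed, the share of reads taken by the 10 most abundant genes correlated with Egr1 at r = -0.52 and rho = -0.39 (permutation p = 0.00095 and 0.0244, adjusted over 10 relations p = 0.00317 and 0.0609). For Jun r was -0.53 and rho -0.46, for Fos -0.48 and -0.46, for Atf3 -0.48 and -0.35 and for Myc -0.61 and -0.48. The r of all 5 passed (adjusted permutation p at most 0.00836). Without the 2 animals farthest from the median of the share, which were anti-Fx1A animals 10 and 11, r lay between -0.48 and -0.44 and still passed (adjusted permutation p = 0.0343 each), while 0 of the 5 rho did. In the combination the share was lowest in animal 35, at 21.08%, and in L-NAME it was lowest in animal 25, at 21.88%. Within vehicle, r was 0.28 for Egr1, 0.49 for Jun, 0.16 for Fos and -0.66 for Atf3, within a narrow range of shares. Reads per library gave no relation that passed over the 38 animals (r from -0.26 to -0.00, lowest adjusted permutation p 0.213). The sign differed between groups, with r from -0.73 for Myc to -0.43 for Egr1 within anti-Fx1A, and from 0.11 for Fos to 0.38 for Jun within L-NAME. Anti-Fx1A animals 9 to 12 had the fewest reads of their group (4434855 to 5228067), the lowest shares (18.2 to 25.66%) and the highest Jun and Myc. Within anti-Fx1A the share had r = -0.93 with Myc. Relations within groups were not tested. With the share as a covariate in the fit, Fos, Egr1 and Atf3 were still called in the combination against vehicle, with log2 fold changes of 0.42, 0.73 and 0.89 (limma adjusted p = 0.0283, 0.0179 and 0.0178). The part of the share in the correlations between genes was not tested.

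Over all genes tested, those most like each member were ranked by r across the 38 animals with the group means removed. Egr1 ranked 10 of 12598 for Atf3 (r = 0.91) and 7 for Jun, and Atf3 ranked 4 for Egr1. For Fos, Egr1 ranked 8, Jun 11 and Atf3 25. Fos itself ranked lower for the others, at 242 for Atf3, 116 for Jun and 111 for Egr1. Jun ranked 28 for Atf3 and 9 for Egr1, and Atf3 ranked 16 for Jun. Atf3 had 140 genes at r of 0.8 or more, Egr1 104, Jun 76 and Fos 4. Conversely, 100, 82, 69 and 3 genes stood at -0.8 or less. The gene most like Atf3 was ENSRNOG00000003890 (r = 0.95), which was also among the 3 most like Jun and Egr1, at 0.92 each. The highest for Egr1 was ENSRNOG00000007243 (r = 0.93), for Jun ENSRNOG00000001607 (r = 0.93) and for Fos ENSRNOG00000014797 (r = 0.84). These are descriptions of the 38 libraries, and the genes are known here by identifier alone.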

How the data were processed

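The authors deposited variance-stabilised log2 values, corrected for library size, for 30207 genes in 38 animals, judging by the name and values of the table. Per the labels' protocols, 500 ng of RNA entered a QuantSeq FWD kit, which reads 3' ends. Salmon 1.4.0, edgeR 3.40.2 and DESeq2 are named in the submitters' processing notes, with no role. The genome build and annotation are not given in the sources used here.

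Groups came from the titles, and columns were matched to animals by library name. The lowest value, 4.31634, is that of 0 reads. Inverting the stabilising curve gave whole reads within 0.05 for all values up to 10000 reads, and RPM are these reads scaled to the library total of the same reads. Intervals and limits cover counting error only.

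The table was fitted whole with limma 3.58.1 in R 4.3.3 (means of 4 groups, eBayes with trend and robust estimation, Benjamini-Hochberg over 12599 genes, threshold 0.05), after a test on simulated data. Permutation tests used 100000 resamples or were exact. No label gives a batch, and nothing says how animals were housed or processed. All 5 genes present are reported. The members and lists were chosen with earlier results of these data known. Symbols of the members come from the list of identifiers. Gene lists and marker lists by symbol could not be read, since 0 of 30207 identifiers were found in the reference.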

Additional observations from a re-analysis of the deposited data

Results flagged for a closer look

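Anti-Fx1A animal 10 stood apart from the other 9 anti-Fx1A animals in 3 of the 5 genes, by a gap to the nearest animal that was large for the range of the group. Its log2 value was 10.04 for Jun, where the next animal was at 9.40, 8.51 for Egr1, where the next was at 7.42, and 6.96 for Atf3, where the next was at 5.99. The gap was 0.512, 0.571 and 0.691 of the range of the group, above the critical value of 0.466 for 10 animals. Of 20 groups of values examined, 3 were marked in this way, all for this animal, and chance marks about 1 in 20. These marks are 1 library seen through 3 genes that correlate with each other at r of 0.88 to 0.91, and they are not independent of each other. The same library had the lowest share of reads in its 10 most abundant genes of all 38, at 18.2%, and one of the 3 lowest library weights.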

How the results depend on the processing

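Alternatives were 10 other settings of the fit and each of the 38 animals left out in turn. No paired analysis was possible because each animal has a number of its own. The exact permutation test was run without adjustment over the members. In the combination against vehicle, 3 genes were called, 2 to 3 when an animal was left out and 1 with the filter at 2 log2 units, which Fos and Atf3 did not pass. In the combination against anti-Fx1A, the 1 call of Fos became 0 with quantile normalisation, no filter, the filter at 2 log2 units, only the groups compared or voom, 2 with library weights and 3 without the 3 libraries that stood apart, and 0 to 2 with an animal left out. Without these libraries 1 gene was called in the combination against L-NAME (0 to 1 with an animal left out). Anti-Fx1A animal 10 and L-NAME animal 25 were the highest of their groups in Fos, Jun, Egr1 and Atf3. Leaving them out was therefore bound to raise the differences of the combination from these groups. Within groups, the 10 correlated pairs numbered 6 in anti-Fx1A, 6 in L-NAME and 0 in vehicle animals, and by rank, an alternative chosen after seeing the data, 4, 1 and 0. Of these pairs, 2, 1 and 0 passed by both. The cause was not tested.

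Signs turned in differences near 0. Fos against vehicle was -0.014 with L-NAME without the 3 libraries (-0.035 to 0.117 with an animal left out), and with anti-Fx1A it was -0.024 with quantile normalisation, -0.031 with library weights and -0.105 with voom (-0.021 to 0.098). In anti-Fx1A against L-NAME, Fos was 0.003 with the top 10 share of reads as a covariate and 0.014 without the 3 libraries (-0.092 to 0.060). The interaction of Egr1 was 0.077 with library weights and 0.311 without the 3 libraries (-0.226 to 0.102), that of Atf3 lay between -0.066 and 0.371 with an animal left out, and Jun with anti-Fx1A against vehicle between -0.121 and 0.025. Within vehicle, r was -0.119 for Fos and Jun, -0.466 for Fos and Myc and -0.067 for Jun and Atf3. The SD ratio of Jun for anti-Fx1A over vehicle was 0.953 without the farthest animal of each group.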
